A study of Mus musculus with 32 samples.

Results

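This report covers 10 genes that mark hepatic progenitor and epithelial identity, chosen by name from the 54446 genes counted in each library. They were Afp, Gpc3, Hnf4a, Krt8, Krt18, Krt19, Epcam, Sox9, Cdh1 and Vim, and all 10 were found by gene identifier in all 32 libraries. Albumin (Alb), the main secreted protein of hepatocytes, was used beside them as a measure of hepatocyte RNA and is not one of the 10. The samples were bulk tumours. BNL-MEA, a transformed liver line of the mouse, had been injected under the capsule of the left liver lobe of BALB/c mice, so that host liver may be part of a sample. Because the tissue was bulk, fewer cells of a type and less RNA per cell cannot be told apart.

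There were 10 groups in 3 experiments, which the labels give as batches. Regorafenib, a drug that blocks VEGF receptors and further kinases, was given at 5 mg/kg/day (low dose) in each of them. In the dose experiment 4 vehicle tumours stood beside 3 of low dose and 3 of high dose, which was 20 mg/kg/day. In the DC-101 experiment 4 vehicle tumours stood beside 3 of low dose and 3 given DC-101, which blocks the mouse VEGF receptor Kdr (800 µg i.p., with the days 1, 3 and 5 in the labels). In the anti-PD1 experiment there were 3 tumours each of vehicle, low dose, an antibody to the T cell checkpoint PD1, and its combination with low dose. All groups share the cell line, the strain and the site of the graft. Total counts were between 16.8 M and 27.7 M per library.

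Hepatocytes and bile duct cells both arise from fetal hepatoblasts. Hepatoblasts make alpha-fetoprotein (Afp) and the proteoglycan glypican 3 (Gpc3), which are largely switched off after birth and are known to return in many liver cancers. Hnf4a is the nuclear receptor that maintains the hepatocyte program. Krt8 and Krt18 are the keratin pair of hepatocytes and of other simple epithelia, whereas Krt19, Epcam and Sox9 are found in bile duct and progenitor cells. Cdh1 (E-cadherin) joins epithelial cells, and Vim (vimentin) is the intermediate filament of mesenchymal cells and of many tumour lines.

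The promoters of 5 loci are shown because the genes behind them differed in how closely they followed Alb. Each runs from 250 bases before to 50 bases after a RefSeq start site on GRCm38.p6, read 5′ to 3′ on the gene's strand. Promoters were matched for 7 of the 10 genes. In the first 3 sequences capitals mark GTTAAT or its reverse complement ATTAAC, part of the site of the liver factor HNF1. In the last pair capitals mark CACCTG or its reverse complement, the E-box read by Snail family repressors.
Alb promoter, chr5:90460620-90460919, plus strand: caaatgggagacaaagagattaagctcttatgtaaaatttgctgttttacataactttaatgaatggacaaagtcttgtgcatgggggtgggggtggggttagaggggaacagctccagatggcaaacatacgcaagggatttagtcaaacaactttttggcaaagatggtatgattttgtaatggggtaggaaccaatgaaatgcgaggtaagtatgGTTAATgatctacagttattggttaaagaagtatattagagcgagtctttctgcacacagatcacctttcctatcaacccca
Hnf4a downstream promoter, chr2:163546905-163547204, plus strand: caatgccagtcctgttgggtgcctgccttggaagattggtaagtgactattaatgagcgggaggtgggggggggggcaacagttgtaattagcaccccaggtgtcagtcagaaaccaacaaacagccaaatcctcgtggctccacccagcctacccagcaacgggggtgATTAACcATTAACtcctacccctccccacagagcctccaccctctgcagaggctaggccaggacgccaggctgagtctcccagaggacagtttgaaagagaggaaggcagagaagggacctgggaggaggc
Afp promoter, chr5:90490464-90490763, plus strand: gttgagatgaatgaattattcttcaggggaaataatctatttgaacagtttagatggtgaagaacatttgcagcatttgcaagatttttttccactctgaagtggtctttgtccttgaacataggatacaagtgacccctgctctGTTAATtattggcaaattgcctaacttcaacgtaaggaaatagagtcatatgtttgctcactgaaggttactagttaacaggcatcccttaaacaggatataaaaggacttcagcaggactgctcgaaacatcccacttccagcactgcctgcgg
Krt8 promoter, chr15:102004293-102004592, minus strand: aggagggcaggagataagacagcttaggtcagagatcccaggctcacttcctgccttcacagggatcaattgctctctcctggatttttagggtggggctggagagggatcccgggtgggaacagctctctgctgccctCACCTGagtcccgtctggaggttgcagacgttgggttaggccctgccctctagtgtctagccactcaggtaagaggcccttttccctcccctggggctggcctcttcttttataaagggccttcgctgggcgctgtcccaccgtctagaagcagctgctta
Krt18 promoter, chr15:102027966-102028265, plus strand: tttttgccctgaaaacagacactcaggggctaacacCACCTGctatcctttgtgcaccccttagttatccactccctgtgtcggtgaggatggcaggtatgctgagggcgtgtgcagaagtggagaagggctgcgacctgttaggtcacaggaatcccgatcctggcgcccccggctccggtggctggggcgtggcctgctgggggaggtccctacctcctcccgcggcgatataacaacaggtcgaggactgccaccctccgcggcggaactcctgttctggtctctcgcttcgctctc
GTTAAT was found on either strand in 7.1% of 32851 promoters of this length, and CACCTG in 20.2%. The Alb and Afp promoters held 1 GTTAAT match each. The downstream Hnf4a promoter held 2, at bases 170 and 177, and its upstream promoter held 0. The Krt8 and Krt18 promoters held 1 CACCTG match each, the Epcam promoter held 2 and the downstream Hnf4a promoter held 1. TATAAA, searched on both strands too and found in 13.6% of promoters, had 1 match each in Afp and Vim and 2 in Krt8, at bases 248 and 250, which overlap each other. No GTTAAT match overlapped a CACCTG match. The Gpc3 promoter held none of the 3 motifs, and a match of letters describes the sequence only. Alb and Afp are neighbours on chromosome 5, with 14134 bp between their gene models, and Krt8 and Krt18 are neighbours on chromosome 15, with 23697 bp between them.

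The first question was how strongly each gene was expressed. Levels between genes are compared as FPKM (CPM divided by the exon length in kilobases), and levels of 1 gene between libraries as log2 CPM (log2 of CPM, for which library sizes were corrected by TMM within each experiment). Vim stood far above the others, with a median of 1190 FPKM over the 32 libraries, against 720 FPKM for Alb. Krt18 followed at 35.1 FPKM and Krt8 at 22.2 FPKM. Hnf4a had a median of 3.61 FPKM, Cdh1 2.9, Sox9 2.58, Krt19 1.42, Epcam 1.37 and Gpc3 0.558 FPKM. Afp was the lowest at 0.131 FPKM, with 1 to 84 counts per library and a median of 10.5. Of the hepatoblast markers, Afp was therefore close to the detection limit at this depth, although the tumours are labelled as hepatocellular carcinoma.

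Hnf4a varied most, from -2.48 log2 CPM (2 counts, vehicle replicate 1 of the DC-101 experiment) to 9.58 log2 CPM (14289 counts, high dose replicate 1). Krt19 ranged over 8.79 log2 units, Krt18 over 8.45, Epcam over 7.92, Gpc3 over 7.35 and Krt8 over 6.4. Afp ranged over 4.74 and Cdh1 over 4.36. Vim and Sox9 were the most even genes, with ranges of 2.98 and 2.92 log2 units and pooled SDs within groups of 0.38 and 0.6. By comparison, the SD within groups was 2.41 for Alb and 2.21 for Hnf4a. Much of the spread therefore lay between tumours given the same treatment.

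**Figure D1:**
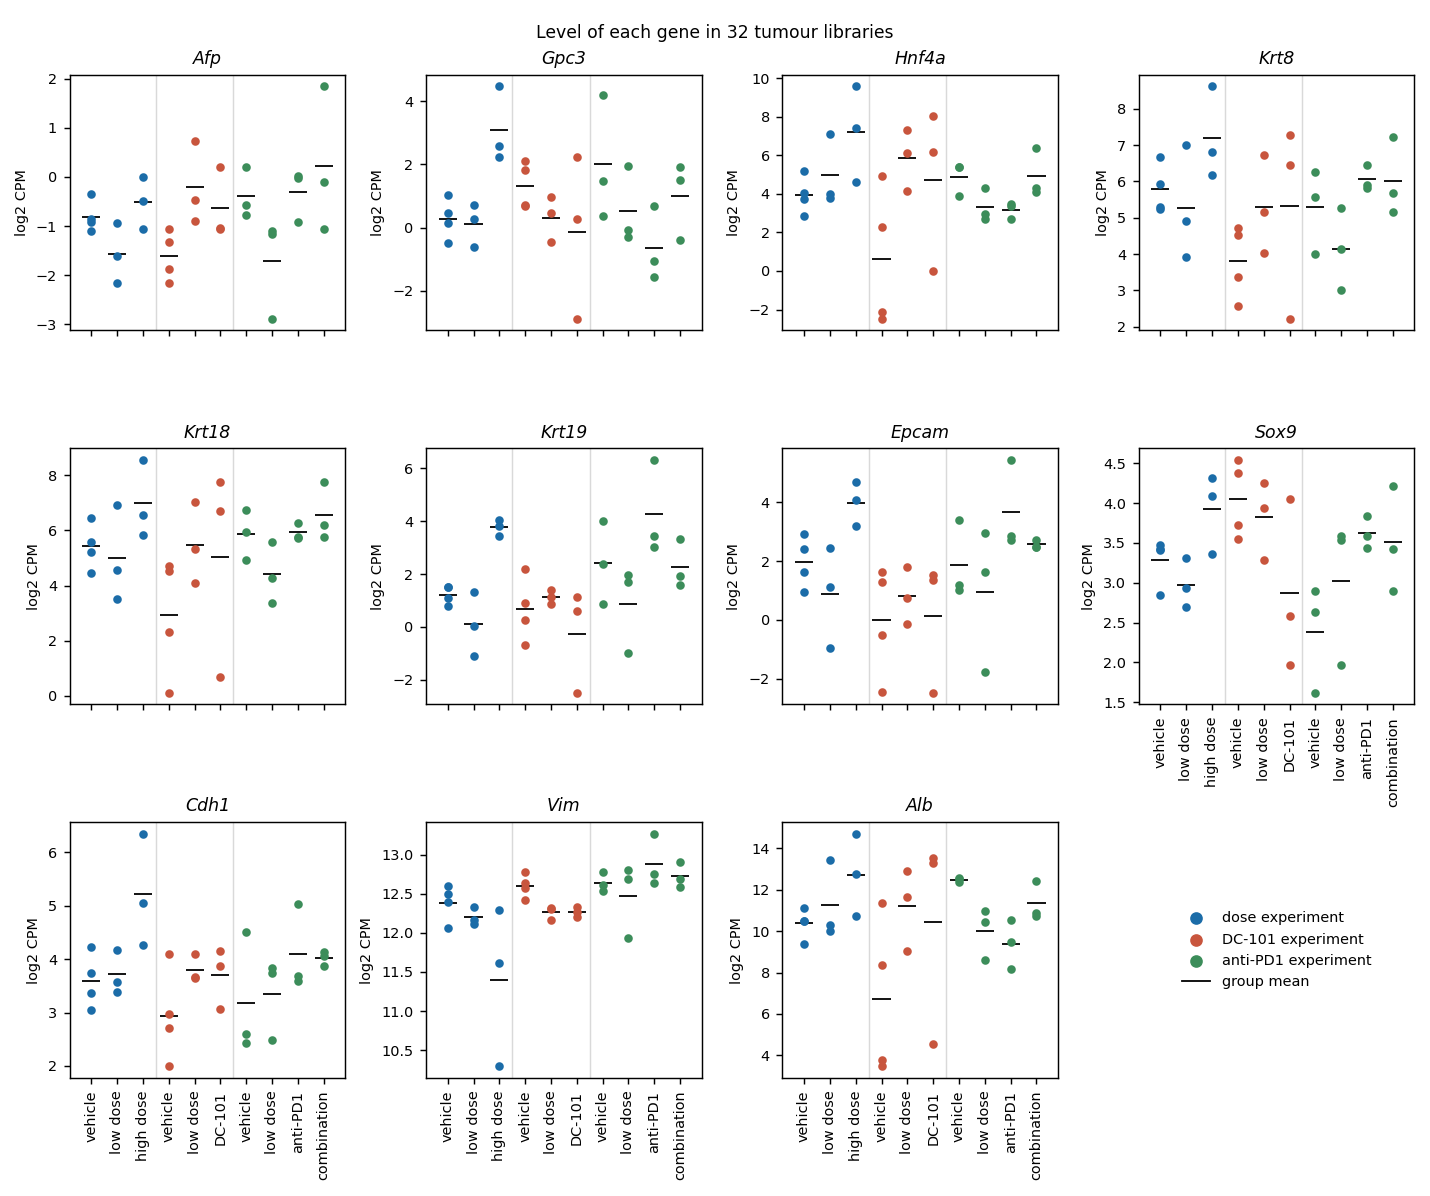
Log2 CPM of the 10 genes and of Alb in each library (points), by group, with the group mean as a bar and the experiment by colour; each panel has its own axis. Vim stays between 10.29 and 13.27 log2 CPM, whereas Hnf4a and Alb fall to their lowest values in the DC-101 experiment.

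Alb was below 5 log2 CPM in 3 libraries, all in the DC-101 experiment. These were vehicle replicate 1 (3.76), vehicle replicate 4 (3.47) and DC-101 replicate 1 (4.55). All other libraries were at 8.17 or above. The tumours of the series thus differ in how much hepatocyte RNA they hold. In the Alb-poor libraries, in the same order, Hnf4a was at -2.48, -2.14 and 0.01 log2 CPM (2, 3 and 21 counts). Krt8 was at 3.36, 2.58 and 2.22 log2 CPM, and Krt18 at 2.32, 0.11 and 0.69. Cdh1 was at 1.99, 2.71 and 3.07 log2 CPM, Sox9 at 4.38, 4.54 and 1.97 and Vim at 12.78, 12.42 and 12.21. Krt19 was at 0.91, -0.67 and -2.48 log2 CPM, Epcam at -0.51, -2.46 and -2.48 and Gpc3 at 1.81, 0.73 and -2.88. Vim, Sox9, Krt8 and Cdh1 were thus well above the floor in all 3 libraries, whereas Krt19, Epcam and Gpc3 fell to 1 or 2 counts in DC-101 replicate 1.

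The share of the keratin pair also differed in these libraries. The ratio of Krt18 to Krt8, both as FPKM, was 0.658, 0.229 and 0.454 in the 3 Alb-poor libraries, the lowest of all 32. In the other 29 it was between 0.787 and 2.58. Krt18 thus fell further than its partner Krt8.

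The second question was which genes followed Alb among tumours of the same group. The slope of each gene on Alb was fitted over 32 libraries with the 10 groups as terms, for 18629 genes. It gives the log2 change of a gene per log2 unit of Alb. By edgeR's quasi-likelihood test with Benjamini-Hochberg adjustment over all genes, 3 of the 10 genes passed, all with positive slopes. They were Hnf4a (slope 0.91, SE 0.07, adjusted p = 9.16e-11), Krt18 (0.65, SE 0.08, adjusted p = 5.99e-07) and Krt8 (0.46, SE 0.08, adjusted p = 7.68e-05). Over all genes 1394 passed, 7.48%, and 7.41% passed with a positive slope. The Hnf4a slope had a 95% interval of 0.76 to 1.06, which includes a proportional change with Alb. The intervals of Krt18 (0.48 to 0.82) and Krt8 (0.29 to 0.63) lay below 1.

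The other 7 genes did not pass over the 32 libraries. For Vim the slope was -0.03 with an interval of -0.09 to 0.03, and for Sox9 it was 0.02 (-0.1 to 0.14). These are narrow intervals, so that a slope as large as that of Krt8 lies outside them. For Cdh1 the slope was 0.13 (0.01 to 0.25, adjusted p = 0.226) and for Afp 0.16 (0.01 to 0.31, adjusted p = 0.29). The intervals of Gpc3 (-0.1 to 0.48), Krt19 (-0.08 to 0.42) and Epcam (0.03 to 0.57) were wide and reached into that of Krt8. The interval of Afp also reached into that of Krt8, and those of Afp, Cdh1 and Epcam lay just above 0. A lack of relation to Alb was not shown for any of these 5 genes.

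**Figure D2:**
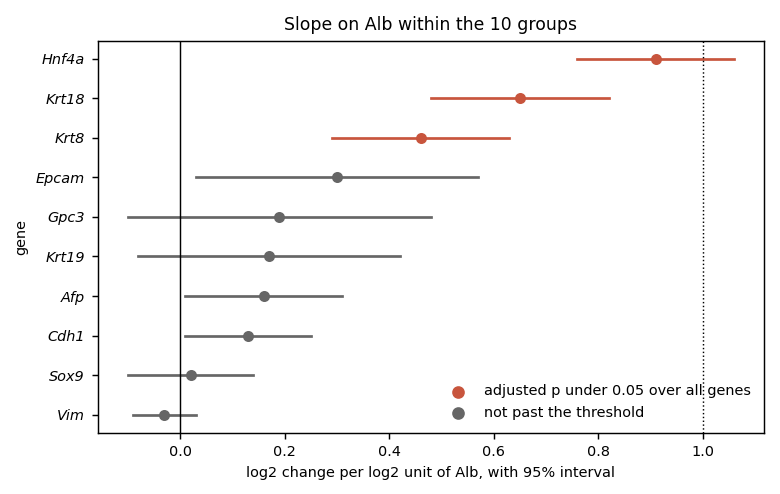
Slope of each gene on Alb within the 10 groups (log2 change per log2 unit of Alb), with its 95% interval; red points passed the threshold over all genes, and the dotted line at 1 stands for a proportional change. Hnf4a lies at 0.91, Krt18 at 0.65 and Krt8 at 0.46, and Vim and Sox9 lie at -0.03 and 0.02.

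Hnf4a, Krt18 and Krt8 also had the highest correlations of the deviations from the group means over 32 libraries (10 relations, unadjusted 2-sided permutation p with 1e+05 permutations within groups). Pearson's r with Alb was 0.96 for Hnf4a (rho 0.93, permutation p = 1e-05 for r and 1e-05 for rho), where 1e-05 is the smallest p that these permutations can give. It was 0.89 for Krt18 (rho 0.86, permutation p = 3e-05 for r and 9e-05 for rho) and 0.79 for Krt8 (rho 0.76, permutation p = 0.00024 for r and 0.00033 for rho). Without the 2 libraries farthest from the median Alb (2 of the Alb-poor vehicle libraries), r was 0.94, 0.88 and 0.8. Afp had r = 0.45 (rho 0.55, permutation p = 0.0115 for r and 0.00733 for rho), Epcam 0.51 (rho 0.37, permutation p = 0.0479 for r and 0.101 for rho) and Cdh1 0.43 (rho 0.41, permutation p = 0.0282 for r and 0.042 for rho). With Benjamini-Hochberg adjustment over the 10 genes the permutation p for r was 0.0287, 0.0799 and 0.0564 in the same order. Without those 2 libraries r fell to 0.39, 0.37 and 0.32 (permutation p = 0.0515, 0.228 and 0.11, adjusted 0.129, 0.34 and 0.221). Without the 2 libraries whose Alb deviated most from the group mean (an alternative chosen after the values were seen), r was 0.91 for Hnf4a, 0.81 for Krt18, 0.68 for Krt8, 0.46 for Afp, 0.24 for Epcam, 0.19 for Cdh1 and 0.14 for Gpc3 and Krt19. The relations of Epcam and Cdh1 thus rested in part on the libraries left out. For Gpc3, Krt19, Sox9 and Vim r was 0.36, 0.34, 0.1 and -0.18 (permutation p = 0.251, 0.214, 0.779 and 0.32), with rho at 0.21, 0.24, 0.02 and -0.1 (permutation p = 0.34, 0.272, 0.938 and 0.587). Without the 2 libraries farthest from the median their r was 0.42, 0.29, 0.33 and -0.22. Across 11718 genes, which are not independent of each other, 6.42% had r above 0.5 and 1.6% above 0.9.

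The estimates of the relation to Alb differed in size between the experiments. For Hnf4a, r was 0.98 in both the dose and the DC-101 experiment (10 libraries each) and 0.63 in the anti-PD1 experiment (12 libraries). Krt18 had 0.93, 0.94 and 0.35, and Krt8 had 0.91, 0.92 and 0.12. Within the dose experiment the slopes of Hnf4a (1.14, SE 0.08), Krt18 (0.79, SE 0.1) and Krt8 (0.68, SE 0.09) passed, with 2591 of 17250 genes (15%). Within the DC-101 experiment those of Hnf4a (0.88, SE 0.08), Krt18 (0.64, SE 0.1), Krt8 (0.43, SE 0.08) and also Cdh1 (0.15, SE 0.03, adjusted p = 0.0404) passed, with 597 of 16614 genes (3.59%), and Epcam had 0.44 (SE 0.11, adjusted p = 0.0736). Within the anti-PD1 experiment 8 of 17146 genes passed (0.0467%), and no slope of the 10 did (Hnf4a 0.68, SE 0.24, adjusted p = 0.569, Krt18 0.44, SE 0.26, adjusted p = 0.968, and Krt8 0.23, SE 0.31, adjusted p = 0.968). Epcam went from r = 0.56 and 0.88 to -0.68 there, Cdh1 from 0.6 and 0.86 to -0.51 and Krt19 from 0.55 and 0.65 to -0.42. Vim had r = -0.71 in the dose experiment (slope -0.24, SE 0.09, adjusted p = 0.104), outside the interval of its slope over all libraries, and r = 0.16 and 0.14 in the others. The difference between the experiments was not tested. Alb spanned less in the anti-PD1 experiment, from 8.17 to 12.54 log2 CPM, and its 3 vehicle libraries lay between 12.36 and 12.54.

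**Figure D3:**
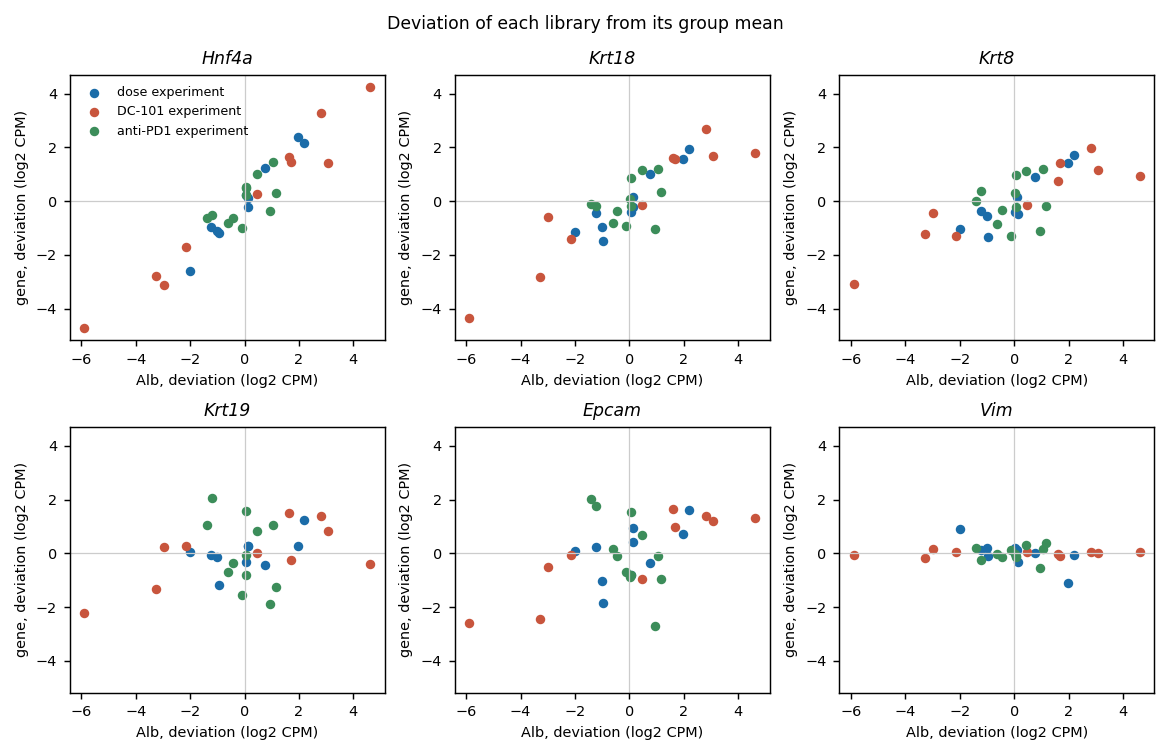
Deviation of each library from its group mean for 6 genes against that of Alb (both in log2 CPM), with the experiment by colour. Hnf4a, Krt18 and Krt8 rise with Alb (r = 0.96, 0.89 and 0.79 over 32 libraries), Vim has r = -0.18 over 32 libraries and -0.71 in the dose experiment, and for Krt19 and Epcam the points of the anti-PD1 experiment run the other way (r = -0.42 and -0.68).

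Anti-PD1 replicate 1 was the library with the highest Krt19 (6.31 log2 CPM, 1590 counts) and the highest Epcam (5.44 log2 CPM, 868 counts) of all 32. Its Cdh1 was 5.03 log2 CPM and its Krt8 6.45 log2 CPM, whereas Alb was 8.17 log2 CPM, the lowest of that experiment. The score of the ductal list (mean log2 CPM of 15 bile duct genes that are not among the 10) was also highest there within the experiment, at 3.2, against -0.05 to 2.31 in the other 11 libraries. Without that library r with Alb in the anti-PD1 experiment was -0.56 for Epcam, -0.32 for Cdh1 and -0.15 for Krt19 (n = 11, an alternative chosen after the values were seen).

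The third question was which genes each of the 10 moved with. Each gene was set beside the score of 12 gene lists (mean log2 CPM of the listed genes without the 10 and Alb), as r of within-group deviations over 32 libraries. These r values are descriptions, since all points share the same libraries and their scaling. Hnf4a lay closest to the hepatocyte list (r = 0.97) and the liver transcription factors (0.96). Krt18 and Krt8 had their highest r with the list of epithelial junctions and keratins (0.95 and 0.96). They had 0.94 and 0.93 with the liver transcription factors, and 0.89 and 0.82 with the hepatocyte list. Epcam lay closest to the epithelial regulators (0.94), Krt19 to the ductal list (0.85) and Cdh1 to the epithelial regulators (0.77).

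Gpc3 stood apart from the other liver markers. It had r = 0.84 with the mesothelial list and 0.71 with the fibroblast list, against 0.31 with the hepatocyte list and 0.6 with the other fetal liver genes. Vim had r = 0.63 with the proliferation list and 0.59 with the mesenchymal list. Sox9 reached 0.56 with the fetal liver list and 0.55 with the ductal list. Afp had no r above 0.38. Thus Gpc3 and Afp, the oncofetal pair, had r = 0.25 with each other.

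**Figure D4:**
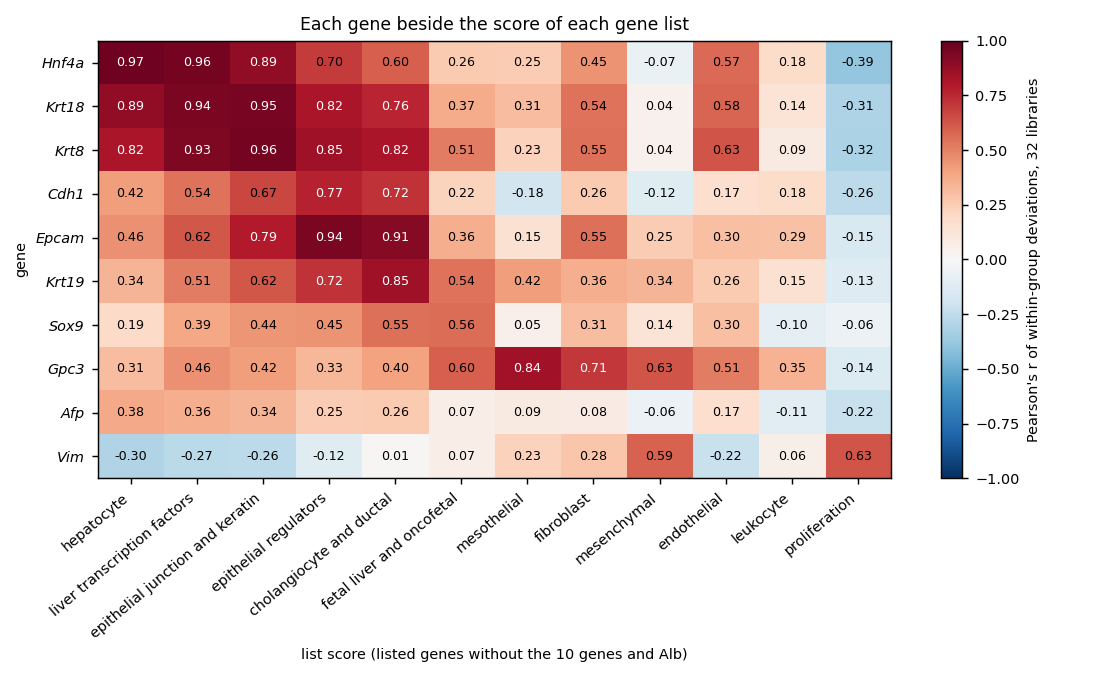
Pearson's r between each gene (rows) and the score of each gene list (columns), from within-group deviations over 32 libraries, with red for positive and blue for negative r. Hnf4a reaches 0.97 with the hepatocyte list, Epcam 0.94 with the epithelial regulators and Gpc3 0.84 with the mesothelial list.

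The single genes nearest to each of the 10, among genes with a mean of at least 2 log2 CPM, are named next. Nearest to Hnf4a were the liver plasma protein genes Serpinf2, F2 and Fga (r = 0.99 each). Nearest to Krt8 were Krt18 (0.96), the epithelial protease inhibitor Spint2 (0.95) and the claudin Cldn3 (0.94), and nearest to Krt18 were Cldn3, Hp and Slc4a4 (0.97 each). Nearest to Epcam were Ly6d (0.83), Cldn2 (0.83) and Cdh1 (0.77), and nearest to Krt19 were Serinc2 (0.8), Myrf (0.77) and Gm42047 (0.72). Gpc3 had Gfpt2 (0.93), Sulf1 (0.9) and the prostacyclin synthase Ptgis (0.88). Vim had Arhgap10 (0.91) and Plp2 (0.88). Sox9 had Eprs (0.71), Ctnnd1 (0.69) and Mrtfb (0.69), and Cdh1 had Ubd (0.71), B2m (0.7) and Vps53 (0.69). Afp had Gstm5 (0.53), Kcne3 (0.5) and Hpgd (0.5), the weakest of these.

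Among the genes of the lists, the hepatocyte list without Alb had 36 of 39 genes past the threshold with a positive slope on Alb (median slope 0.96, against -0.01 over all genes). The liver transcription factors had 14 of 18 (median 0.72) and the epithelial junctions and keratins 12 of 22 (median 0.33). The epithelial regulators had 3 of 13 (0.26), the ductal list 2 of 18 (0.09), the fetal liver list 1 of 15 (0.01), the fibroblast list 1 of 15 (-0.02) and the endothelial list 1 of 15 (0.05). A positive slope passed in 7.41% of all genes, and the ductal, fetal liver, fibroblast and endothelial lists lay near that share. No gene of the mesenchymal (18), leukocyte (18), mesothelial (12) or proliferation (20) lists passed. None of the 12 lists had a gene past the threshold with a negative slope. Here and below, the counts of a list include those of the 10 that it holds, such as Hnf4a among the transcription factors, Krt8, Krt18, Cdh1 and Epcam among the junctions and keratins, and Krt19, Epcam and Sox9 in the ductal list.

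The next question was how treatment moved the 10 genes, beginning with the dose of regorafenib. Gpc3, Krt19 and Cdh1 were higher with high dose than with vehicle, and 3 of the 10 passed the test. Of 16525 genes tested 2582 passed (15.6%), and 8.8% passed with a higher level. All 3 were higher in every high dose library than in any vehicle library. How many of all genes lay apart in this way was not counted, here or in the comparisons below. An unadjusted p below 0.05 by edgeR was found for 6621 of the 16525 genes.

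Gpc3 was at -0.48, 0.46, 1.02 and 0.15 log2 CPM in the 4 vehicle libraries, at -0.62, 0.73 and 0.27 with low dose, and at 2.24, 4.47 and 2.58 with high dose. The log2 change against vehicle was 3.16 (SE 0.63, adjusted p = 0.031). Krt19 was at 1.08, 1.5, 1.51 and 0.8 log2 CPM with vehicle, at -1.08, 0.04 and 1.34 with low dose, and at 4.04, 3.45 and 3.83 with high dose. Its log2 change was 2.6 (SE 0.51, adjusted p = 0.0303). The high dose libraries of both genes lay apart from vehicle and low dose, and those of Krt19 lay close together. Cdh1 was at 3.05, 3.74, 4.23 and 3.37 log2 CPM with vehicle and at 6.35, 4.27 and 5.06 with high dose, a log2 change of 1.87 (SE 0.49, adjusted p = 0.0432), where the lowest high dose library was just above the highest vehicle library.

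Hnf4a had the largest log2 change, 4.19 (SE 1.24), and an adjusted p of 0.0505. Without high dose replicate 1 its log2 change was 2.41, below those of Gpc3 (3.5) and Krt19 (2.45). Hnf4a was at 2.83, 4.05, 3.74 and 5.18 log2 CPM with vehicle and at 9.58, 7.42 and 4.6 with high dose, so the groups overlapped. Alb in the same high dose libraries was 14.69, 12.77 and 10.72 log2 CPM, in the same order. Krt8 (1.73, SE 0.81, adjusted p = 0.141), Krt18 (1.92, SE 0.91, adjusted p = 0.148), Epcam (2, SE 0.76, adjusted p = 0.0834) and Sox9 (0.7, SE 0.29, adjusted p = 0.104) did not pass, and of these only Epcam had groups that did not overlap. Afp had a log2 change of 0.38 (SE 0.46, adjusted p = 0.556). Vim was the only 1 of the 10 with a negative value, -0.77 (SE 0.37, adjusted p = 0.15), and its high dose libraries were at 10.29, 11.61 and 12.3 log2 CPM.

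With the score of the hepatocyte list as a covariate several values fell, most of all those of the genes that follow Alb. A fall of Hnf4a, Krt18 and Krt8 was largely fixed in advance, since they had r = 0.97, 0.89 and 0.82 with that list. The score itself was 4.81 to 7.59 with vehicle and 6.62 to 11.46 with high dose. The covariate thus overlaps with the dose, and this fit cannot tell hepatocyte RNA from an effect of the dose. Hnf4a went from 4.19 to 0.4 (SE 0.21), Krt8 from 1.73 to -0.23 (SE 0.42) and Krt18 from 1.92 to -0.32 (SE 0.41). Gpc3 was at 3.11 (SE 0.79, adjusted p = 0.102) and Krt19 at 2.11 (SE 0.52, adjusted p = 0.0958) with the covariate. Cdh1 went from 1.87 to 1.09 (SE 0.49, adjusted p = 0.288), so that no gene of the 10 passed in that fit, where 135 of 17251 genes did (0.783%). Against low dose, with the same covariate, Gpc3 (3.31, SE 0.76, adjusted p = 0.0472) and Krt19 (3.31, SE 0.52, adjusted p = 0.0138) passed, with 625 of all genes (3.62%). The 39 hepatocyte genes without Alb summed to 2720 to 15500 CPM in the vehicle libraries and to 7100 to 165000 CPM in the high dose libraries, with 0 of them at 0 in every library of a group.

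**Figure D5:**
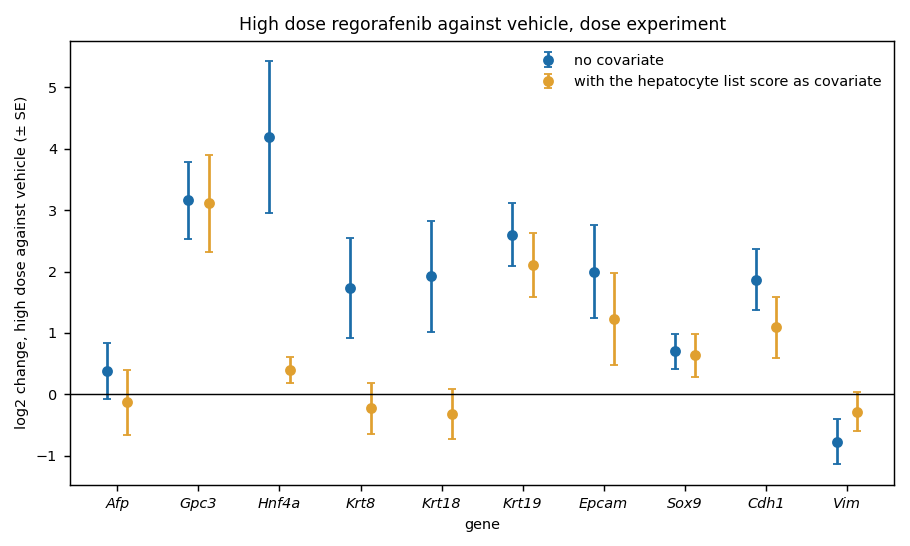
Log2 change of each gene between high dose and vehicle (3 and 4 libraries) with its SE, without a covariate (blue) and with the hepatocyte list score as a covariate (yellow). Hnf4a moves from 4.19 to 0.4, whereas Gpc3 moves from 3.16 to 3.11 and Krt19 from 2.6 to 2.11.

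Markers of 2 further cell types moved with the high dose group. Of the 12 mesothelial genes, the lining of the liver surface, 8 rose and 0 fell (median log2 change 2.93, against 0.02 over all genes). By comparison, 8.8% of all genes passed with a higher level. Krt19 and Krt7 are among the 8, and Rspo1 (5.03, SE 1.03) and Upk3b (5.01, SE 1.01) had the largest values. The mesothelial score was 1.19 to 1.83 with vehicle, and 2.64, 5.08 and 2.87 with high dose, highest in the library with the highest Gpc3. Its summed level did not follow, at 954 to 1340 CPM with vehicle and 296 to 1320 CPM with high dose, and the mesothelial marker Msln had 715 to 1552 counts with vehicle and 247 to 1503 with high dose. Of the 15 tested ductal genes, 4 rose (median 2), among them Krt19 and Krt7 (2.39, SE 0.36), and the ductal score was 1.2 to 1.86 with vehicle and 2.38 to 3.33 with high dose. The summed ductal level was 1560 to 3490 CPM with vehicle and 883 to 1690 CPM with high dose. The part of these cells in the rise of Gpc3, Krt19 and Cdh1 was not tested.

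The other lists are given next for high dose against vehicle. For scale, 8.8% of all 16525 genes passed with a higher level and 1127 passed with a lower one. Of 18 liver transcription factors 8 rose (median 3.5), with the pioneer factor Foxa2 at 4.35 (SE 1) and Onecut1 at 4.33 (SE 1.14). Of 39 hepatocyte genes 6 rose (median 3.76), with the tyrosine pathway enzyme Hpd at 6.35 (SE 1.77) and Cyp2c29 at 5.75 (SE 1.59). Of 22 junction and keratin genes 7 rose and 1, the plakoglobin gene Jup (-0.87, SE 0.22), fell. The tight junction gene Ocln (4.06, SE 1.11) and the desmoglein Dsg2 (3.53, SE 1.02) were the largest. Of 13 epithelial regulators 5 rose and 1, Klf5 (-1.41, SE 0.4), fell, with the splicing factor Esrp1 at 2.71 (SE 0.6) and Ap1m2 at 2.43 (SE 0.65). Of 15 fetal liver genes 5 rose and Hmga2 (-1.65, SE 0.39) fell, with the imprinted gene Peg3 at 3.46 (SE 0.97) beside Gpc3. No mesenchymal gene passed out of 18 (median -0.45). Rgs5 (2.37, SE 0.58) rose alone among 15 fibroblast genes, and Emcn and Cldn5 (both -1.86, SE 0.43) fell among 15 endothelial genes. Of 18 leukocyte genes 3 rose and 8 fell, with the B cell gene Cd79a at 3.63 (SE 0.97) and the myeloid integrin Itgam at -2.8 (SE 0.36). Of 20 proliferation genes 10 fell (median -1.35), with Kif11 at -1.6 (SE 0.46) and Plk1 at -1.55 (SE 0.42). All genes named here passed the threshold, and Jup, Klf5 and Hmga2 were named after their values were seen.

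These calls were sensitive to the libraries used. Without any 1 of the 4 vehicle libraries 0 of the 10 genes passed, and 15 to 83 of all genes did. Without low dose replicate 2, 0 of the 10 passed (284 of all genes), without low dose replicate 1 Krt19 alone (135), and 5 passed without high dose replicate 3 (Gpc3, Hnf4a, Krt19, Cdh1 and Vim, with 7030 of all genes). In the 10 fits without 1 library the log2 change stayed between 2.14 and 3.5 for Gpc3, 2.45 and 2.77 for Krt19, and 1.08 and 2.24 for Cdh1. Among the genes not called, it was 2.41 to 4.75 for Hnf4a, 0.63 to 2.12 for Krt8 and 0.66 to 2.37 for Krt18. It was 1.58 to 2.37 for Epcam, 0.49 to 0.95 for Sox9, 0.06 to 0.66 for Afp and -1.3 to -0.38 for Vim. DESeq2 called 5 of the 10 (Gpc3, Hnf4a, Krt19, Epcam and Cdh1), with 5275 of all genes (31.9%), and limma voom 2 (Gpc3 and Krt19), with 1332 (8.06%).

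In high dose against low dose 2 of the 10 passed. Gpc3 (log2 change 3.35, SE 0.71, adjusted p = 0.0387) and Krt19 (3.51, SE 0.59, adjusted p = 0.0199) were higher with high dose, and all libraries of the groups lay apart. Over all genes 697 passed (4.22%), and 1.74% passed with a higher level. Of the 697, 41.3% were higher, against 29.8% of 198 with total count scaling. The high dose libraries also lay above all low dose libraries for Epcam (2.78, SE 0.86, adjusted p = 0.0926), Sox9 (1.04, SE 0.31, adjusted p = 0.0877) and Cdh1 (1.8, SE 0.54, adjusted p = 0.0858), which did not pass. The share of all genes that lay apart was not counted. An unadjusted p below 0.05 by edgeR was found for 4842 of 16525 genes in this comparison. In the fits that left out 1 library, Gpc3 lost its call in 8 of 10 (each vehicle library, each low dose library and high dose replicate 2). Krt19 lost it without low dose replicate 1 or 2. DESeq2 called 5 of the 10 here (Gpc3, Krt19, Epcam, Sox9 and Cdh1), with 3059 of all genes (18.5%), and limma voom 2, with 776 (4.7%).

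Low dose regorafenib was compared with vehicle in each experiment and over all of them. In the fit over all 3 experiments (11 vehicle and 9 low dose libraries, with the experiment as a term) 271 of 16493 genes passed (1.64%, of which 41% were higher, or 30.6% of 291 with upper quartile scaling), and 0 of the 10 did by edgeR, DESeq2 or limma voom. By edgeR 2 of the 10 had an unadjusted p under 0.05, as did 2584 of the 16493 genes tested. They were Gpc3, with a log2 change of -1.08 (SE 0.49, adjusted p = 0.282), and Vim, with -0.24 (SE 0.11, adjusted p = 0.3). For Krt19 the log2 change was -0.79 (SE 0.48, adjusted p = 0.458) and for Hnf4a 1.4 (SE 0.94, adjusted p = 0.501). Krt8 (0.22, SE 0.53), Krt18 (0.41, SE 0.68), Epcam (-0.3, SE 0.6), Cdh1 (0.25, SE 0.29), Afp (-0.1, SE 0.47) and Sox9 (0.01, SE 0.24) had values within 1 SE of 0. Sox9 and Vim had the smallest errors, so that the low dose fit was most precise for these genes.

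In the same fit 9 of 15 endothelial genes fell (median log2 change -1.21, against 0.03 over all genes), with Cldn5 at -2.45 (SE 0.28) and Esam at -1.38 (SE 0.16). By comparison, 160 of all 16493 genes passed with a lower level and 111 with a higher one. Ass1 (0.93, SE 0.15) rose alone among 39 hepatocyte genes (median 1.24), and Cd14 (0.71, SE 0.16) rose alone among 18 leukocyte genes (median 0.53), with overlapping groups, and was named after its value was seen. The other 9 lists had 0 genes past the threshold. Their medians were -0.45 (fetal liver, 15 genes), 0.71 (liver transcription factors, 18), -0.21 (ductal, 15), 0.39 (junctions and keratins, 21), 0.01 (epithelial regulators, 10), -0.22 (mesenchymal, 18), -0.36 (fibroblast, 15), -0.83 (mesothelial, 12) and 0.03 (proliferation, 20).

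The low dose values of single experiments pointed different ways for several genes. In the order dose, DC-101 and anti-PD1 experiment, Hnf4a had log2 changes of 1.56 (SE 1.15), 3.23 (SE 1.87) and -1.56 (SE 0.67). Krt18 had 0.08 (SE 0.91), 2.16 (SE 1.41) and -1.36 (SE 0.64), and Krt8 -0.09 (SE 0.81), 1.66 (SE 1.03) and -1.15 (SE 0.68). Afp had -0.88 (SE 0.48), 1.76 (SE 0.6) and -1.44 (SE 0.87). The DC-101 experiment is the one with 2 Alb-poor vehicle libraries, and in the anti-PD1 experiment Alb was higher in each vehicle library (12.36 to 12.54 log2 CPM) than in any low dose library (8.6 to 10.95). When edgeR tested whether the change differed between experiments, 0 of 17238 genes passed (0%, and 1695 had an unadjusted p below 0.05). Afp had the lowest adjusted p of the 10 (0.42), followed by Hnf4a (0.517). Gpc3 was negative in all 3 experiments, at -0.2 (SE 0.63), -1.09 (SE 1.01) and -2.07 (SE 1.08), and so was Vim, at -0.22 (SE 0.37), -0.34 (SE 0.12) and -0.14 (SE 0.3).

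Within single experiments low dose moved 0 of the 10 genes past the threshold by edgeR. By edgeR 0 of 16525 genes passed in the dose experiment (0%, where 817 had an unadjusted p below 0.05, 85 passed by DESeq2 and 0 by limma voom), 4 of 16138 in the DC-101 experiment (0.0248%) and 0 of 16615 in the anti-PD1 experiment (0%, and 1964, 425 and 0 in the same order). In the DC-101 experiment Vim was at 12.78, 12.58, 12.64 and 12.42 log2 CPM with vehicle and at 12.31, 12.32 and 12.17 with low dose, with no overlap. Its log2 change of -0.34 (SE 0.12) had an adjusted p of 0.201 by edgeR and 0.0166 by DESeq2, which called 1097 of all genes (6.8%) in this comparison. Afp had 3, 8, 8 and 4 counts with vehicle and 14, 10 and 27 with low dose there, and its adjusted p was 0.201.

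DC-101 gave no call among the 10 genes by edgeR. Vim was at 12.21, 12.27 and 12.33 log2 CPM, below all 4 vehicle libraries, a log2 change of -0.37 (SE 0.12, adjusted p = 0.325 by edgeR and 0.0254 by DESeq2). Afp was at -1.05, 0.21 and -1.06 log2 CPM (9, 24 and 7 counts), against -2.16 to -1.06 with vehicle. The groups did not overlap, with the nearest libraries equal to the digits given (log2 change 1.25, SE 0.6, adjusted p = 0.396). Low dose and DC-101 were set against the same vehicle libraries. Over all genes 0 of 16138 passed against vehicle (0%, and 2131 with an unadjusted p below 0.05, 373 by DESeq2 (2.31%) and 0 by limma voom) and 0 of 16138 passed for low dose against DC-101 (0%, and 1364, 203 and 0). The DC-101 group was widely spread. Hnf4a was at 0.01, 6.17 and 8.03 log2 CPM, Krt18 at 0.69, 6.72 and 7.75 and Gpc3 at -2.88, 0.27 and 2.23, with the Alb-poor library lowest each time.

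In the anti-PD1 experiment none of the 10 genes passed by edgeR in any comparison. Over all genes 0 of 16615 passed by edgeR for anti-PD1 against vehicle (0%, and 2269 with an unadjusted p below 0.05, 614 by DESeq2 (3.7%) and 0 by limma voom), for the combination against vehicle (0%, and 1362, 150 and 0) and for the combination against anti-PD1 (0%, and 1443, 210 and 0). Gpc3 was at 1.47, 0.36 and 4.18 log2 CPM with vehicle and at -1.56, -1.05 and 0.67 with anti-PD1, overlapping groups with a log2 change of -3.41 (SE 1.16, adjusted p = 0.264 by edgeR and 0.0309 by DESeq2). The mesothelial score in the same libraries was 2.85, 2.37 and 5.26 with vehicle and 0.55, 0.33 and 1.72 with anti-PD1, and its part in the Gpc3 value was not tested. Hnf4a was at 5.38, 3.9 and 5.4 log2 CPM with vehicle, at 2.67, 3.39 and 3.46 with anti-PD1 and at 6.39, 4.11 and 4.28 with the combination. The anti-PD1 libraries lay below vehicle and the combination (log2 change -1.88, SE 0.68, adjusted p = 0.279 against vehicle, and 2.12, SE 0.68, adjusted p = 0.472 for the combination against anti-PD1) and overlapped low dose (4.31, 2.94 and 2.67). Alb was 8.17 to 10.54 log2 CPM with anti-PD1, 8.6 to 10.95 with low dose, 12.36 to 12.54 with vehicle and 10.71 to 12.39 with the combination.

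Sox9 was at 2.89, 1.62 and 2.63 log2 CPM with vehicle, at 3.84, 3.59 and 3.43 with anti-PD1 and at 4.21, 3.42 and 2.9 with the combination. Low dose, at 3.58, 1.97 and 3.53, overlapped vehicle (log2 change 0.7, SE 0.47, adjusted p = 0.62). Anti-PD1 and the combination did not, the combination by a gap of 2.9 against 2.89 (log2 changes 1.12, SE 0.47, adjusted p = 0.332, and 1.1, SE 0.47, adjusted p = 0.58, against the same vehicle libraries). Krt19 was at 2.38, 0.88 and 4.02 log2 CPM with vehicle, at 6.31, 3.45 and 3.02 with anti-PD1 and at 3.33, 1.59 and 1.93 with the combination, with a log2 change of -2.55 (SE 1.07, adjusted p = 0.541) for the combination against anti-PD1. Its highest value was that of anti-PD1 replicate 1. Epcam was at 5.44, 2.86 and 2.73 log2 CPM with anti-PD1, and at 2.48, 2.73 and 2.48 with the combination, groups that did not overlap, although the nearest libraries are equal to the digits given (log2 change -1.69, SE 1.03, adjusted p = 0.697).

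Gene models of 4 of the 10 genes overlap others. Afp, Gpc3, Hnf4a and Krt8 each have an antisense gene (Gm43449, Gm14582 and A630012P03Rik, Hnf4aos and Gm36026), and which strand was counted is not given in the sources used here. In Gencode M21 on GRCm38 the gene models, all protein coding, lie as follows: Afp at chr5:90490737-90508907, Gpc3 at chrX:52272426-52613950, Hnf4a at chr2:163506808-163572910, Krt8 at chr15:101996698-102004482, Krt18 at chr15:102028180-102032027, Krt19 at chr11:100140810-100148665, Epcam at chr17:87635979-87651129, Sox9 at chr11:112782224-112787760, Cdh1 at chr8:106603351-106670246 and Vim at chr2:13573927-13582826. Gpc3, Krt8 and Krt19 are on the minus strand.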

How the data were processed

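RNA sequencing was done on 32 BNL-MEA tumours in 10 groups. Per the labels and the study's methods, the authors trimmed reads with cutadapt 2.4, aligned them to GRCm38 with STAR 2.7.2a and had STAR count reads per Gencode gene, and the deposited values are raw counts without normalization or filtering. The library kit was stranded, and the strand column taken is not given in the sources used here. The authors' own normalized values were not used.

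Groups, experiments and replicate numbers came from the labels. Gene identifiers were matched to symbols for 54409 of 54446 genes. The 10 genes and the 12 gene lists (written from general knowledge) were chosen with earlier results of these data known. In R 4.3.3, edgeR 4.0.16 kept genes by filterByExpr (minimum count 10, minimum total count 15), scaled libraries by TMM and applied the robust quasi-likelihood F-test (2-sided) over all genes, with Benjamini-Hochberg adjustment and a threshold of 0.05. All groups of an experiment entered a fit together. Errors of log2 changes are SEs from the same test. DESeq2 1.42.0 and limma 3.58.1 (voom) were alternatives. Log2 CPM used TMM within each experiment and a prior count of 2, and FPKM used exon lengths of Gencode M21. The code was tested on simulated data.

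Named genes followed a rule. They were the 10 and Alb, the 3 nearest genes of each, and, for low dose over all experiments and for high dose against vehicle, up to 2 genes per list with the largest change among those past the threshold whose groups did not overlap. Single genes outside it were named after their values were seen. 1 of the nearest genes is not reported here.

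Libraries held 16.8 M to 27.7 M counts. A count at or below the floor of 3 occurred in 2 libraries each for Afp, Hnf4a and Epcam and in 1 each for Gpc3 and Krt19, and floors cover counting error only. Libraries of a group differed by more than sampling noise in all 36 pairs. The labels do not state separate animals, so p-values measure the spread between these samples. Same-numbered libraries did not deviate together (r above 0.1 in 2 of 9, 4 of 9 and 5 of 18 pairs), so numbers were not treated as pairs. Alternatives covered scaling, filters, tests, the hepatocyte score as covariate, the replicate block, single groups, libraries and experiments.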

Additional observations from a re-analysis of the deposited data

Results flagged for a closer look

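Sox9 in vehicle replicate 3 of the dose experiment was at 2.85 log2 CPM, against 3.41 to 3.47 in the other 3 vehicle libraries, far enough from them to pass Dixon's criterion. The criterion was applied to 22 sets (the 10 genes and Alb in the 2 groups of 4 libraries) and marked 1, and chance marks about 1 set in 20. By edgeR no change of Sox9 in the dose experiment passed the threshold, and DESeq2 called it in high dose against low dose (log2 change 1.07, adjusted p = 0.0154).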

How the results depend on the processing

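The count of the 10 genes past the threshold was recomputed under 130 settings and stayed within 1.5 times the reported count in 115. Most of these settings belonged to comparisons with 0 reported calls, where the count mostly stayed at 0. The fits without 1 library were not among the 130. For high dose against vehicle (3 reported) it was 1 with total count scaling, 5 with DESeq2, and 0 with the hepatocyte covariate, with the replicate block and with only the groups compared. Leaving out 1 library gave 0 to 5, and the count did not stay within 1.5 times the reported one in 7 of 10 fits. For high dose against low dose (2 reported) it was 1 with total count scaling and with no filter, 5 with DESeq2 (which called 3059 of all genes, against 697 by edgeR), and 0 with the replicate block and with only the groups compared. Leaving out 1 library gave 0 to 3, and the count did not stay within 1.5 times the reported one in 7 of 10 fits. DESeq2 gave 1 (Vim) for low dose and for DC-101 against vehicle in the DC-101 experiment, and 1 (Gpc3) for anti-PD1 against vehicle. For the slope on Alb (3 reported) it was 5 without the anti-PD1 experiment and 0 within it, and 3 to 4 without 1 library. The cause of these shifts was not tested. The covariate and within-experiment fits hold fewer degrees of freedom.

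These values turned sign. With the hepatocyte covariate, high dose against vehicle gave Afp -0.13, Krt8 -0.23 and Krt18 -0.32. Slopes on Alb turned for Vim (0.01 without the dose experiment, 0 within the DC-101 experiment), for Epcam (-0.01) and Sox9 (0) without the DC-101 experiment, and for Krt19 (-0.09) without the 3 libraries of lowest Alb. Within the anti-PD1 experiment they turned for Krt19 (-0.58), Epcam (-0.94), Sox9 (-0.03), Cdh1 (-0.4) and Vim (0.08). The Sox9 slope was -0.06 to 0.07 without 1 library. Correlations with Alb turned in the anti-PD1 experiment for Krt19 (-0.42), Epcam (-0.68), Sox9 (-0.14), Cdh1 (-0.51) and Vim (0.14). Without anti-PD1 replicate 1 they were -0.15, -0.56, -0.08 and -0.32 for Krt19, Epcam, Sox9 and Cdh1, and -0.04 for Gpc3. Vim had 0.16 in the DC-101 experiment, and Sox9 -0.09 without the 2 largest deviations of Alb. The fits within single experiments, and those without anti-PD1 replicate 1, the 3 libraries of lowest Alb or the 2 largest deviations, were chosen after seeing the data.

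Replicate numbers did not pair the samples, and the block, which left 1 gene past the threshold in each high dose comparison, changed no other count of the 10. Total count scaling moved the median of all genes in high dose against vehicle to -0.13, against 0.02 with TMM, and 282 genes passed in place of 2582.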
